A study of Mus musculus with 8 samples.

Results

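CD80high medullary thymic epithelial cells (mTECs) were compared with CD80low mTECs in mice that lacked Hipk2 in thymic epithelial cells (TECs), across all genes measured on Illumina bead arrays. The 4 arrays were chosen by their labels: 2 of Hipk2 knockout CD80high mTECs and 2 of Hipk2 knockout CD80low mTECs, out of 8 arrays in the series. The other 4 arrays, 2 of wild-type CD80high and 2 of wild-type CD80low mTECs from mating controls, give the same comparison with Hipk2 present. All 4 groups held RNA of sorted mTECs without further treatment, and the labels call the 2 arrays of a group biological replicates. The sources used here do not give the Cre driver, the deleted part of Hipk2, the age of the mice or the number of animals behind an array. The comparison asks which gene expression differences between the less and the more mature mTEC subset are present without Hipk2.

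mTECs show developing T cells peptides of proteins that are otherwise made in other organs, and T cells that bind these self peptides strongly are removed or become regulatory. Immature mTECs carry little CD80 and MHC class II on their surface and include cells that make the chemokine CCL21. RANK and CD40 signals acting through NF-kB drive mature cells that carry the costimulatory proteins CD80 and CD86 and express Aire, a nuclear protein that allows many tissue-restricted genes to be transcribed. Some mTECs later resemble tuft cells, keratinocytes, muscle or other peripheral cell types. Hipk2 is a nuclear serine/threonine kinase that phosphorylates p53 and acts on transcriptional regulators of the Wnt, TGF-beta and BMP pathways.

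The values below are log2 of normalised intensity unless stated otherwise, and a difference is CD80high minus CD80low on that scale, so that a difference of 1 is a 2-fold higher intensity. Of 46089 probes, 46.4% to 51.4% lay above background on the 8 arrays, and 13895 genes were tested. The replicates correlated over all probes at 0.980 in knockout CD80high and 0.968 in knockout CD80low mTECs, against 0.984 in wild-type CD80high and 0.965 in wild-type CD80low mTECs. Along the first principal component, with 84.5% of the variance, the subsets of both genotypes separated. The second, with 5.82%, set CD80low replicate 1 apart from CD80low replicate 2 in both genotypes. In knockout CD80low mTECs, 35 genes lay 3 or more log2 units apart between the replicates, 34 of them higher in replicate 1, while no gene did so in knockout CD80high mTECs (0 of 13895). Among these were T cell, immunoglobulin and gland transcripts: Cd3g, a T cell receptor chain, read 12.43 and 8.38 in the knockout CD80low replicates, and Scgb2b27, a secretoglobin, 11.90 and 4.63. Tg, the thyroid hormone precursor protein, ran the other way, at 5.25 and 11.66. Results that rest on these genes are therefore given with and without the array.

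Hipk2 itself was measured by 5 probes. On the brightest, the deposited intensity was 538 and 714 in knockout CD80high and 737 and 934 in knockout CD80low mTECs, against 1497 and 1689 in wild-type CD80high and 1196 and 1912 in wild-type CD80low mTECs. All 4 knockout arrays lay below all 4 wild-type arrays on that probe. One further probe read 192 to 321 and another 117 to 160 over the 8 arrays, with overlapping genotypes, and the other 2 were at background on at least 7 arrays. Where these probes lie relative to the deleted part is not known here. Within the knockout, the subset difference of Hipk2 did not pass the test (difference -0.46 ± 0.27 SE, adjusted p = 0.205), and its 3 tested probes disagreed in sign.

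The markers of the 2 subsets were clearly separated without Hipk2. Aire read 12.75 and 12.88 in knockout CD80high mTECs, against 8.03 and 8.40 in knockout CD80low mTECs. Cd80, the gene whose protein was used for the sort, read 9.90 and 10.76 in knockout CD80high mTECs, against 5.24 and 5.82 in knockout CD80low mTECs. Its partner Cd86 read 10.09 and 10.20 in knockout CD80high mTECs, against 5.63 and 6.46 in knockout CD80low mTECs. For all 3 genes both knockout CD80high arrays lay far above both knockout CD80low arrays, with differences of 4.60 ± 0.21 (SE, adjusted p = 6.15e-07) for Aire, 4.80 ± 0.33 (adjusted p = 2.43e-06) for Cd80 and 4.10 ± 0.27 (adjusted p = 1.92e-06) for Cd86. The wild-type differences of the same genes were 4.51, 4.82 and 4.09. Because the cells were sorted on CD80 protein, the Cd80 difference is no independent sign of maturation.

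Krt5, a basal keratin of mTECs, ran the opposite way. It read 9.35 and 9.71 in knockout CD80high mTECs, against 11.38 and 12.09 in knockout CD80low mTECs, a fall of 2.20 on the log2 scale (SE 0.27, adjusted p = 9.9e-05), and every array stayed well above background. Fezf2, a transcription factor that drives Aire-independent tissue-restricted genes, read 13.62 and 13.79 in knockout CD80high mTECs, against 11.36 and 11.99 in knockout CD80low mTECs, and rose by 2.03 ± 0.24 (adjusted p = 7.4e-05). The TEC factor Foxn1 was dim, at 6.24 and 6.87 in knockout CD80high mTECs, against 5.64 and 5.40 in knockout CD80low mTECs, and rose by 1.04 (adjusted p = 0.00594). Epcam, an epithelial surface protein, was close to background on all 4 knockout arrays, at 5.23 to 5.58, so its level does not check the label. In RNA of a sorted population, fewer cells of a type and less RNA per cell cannot be told apart.

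**Figure D1:**
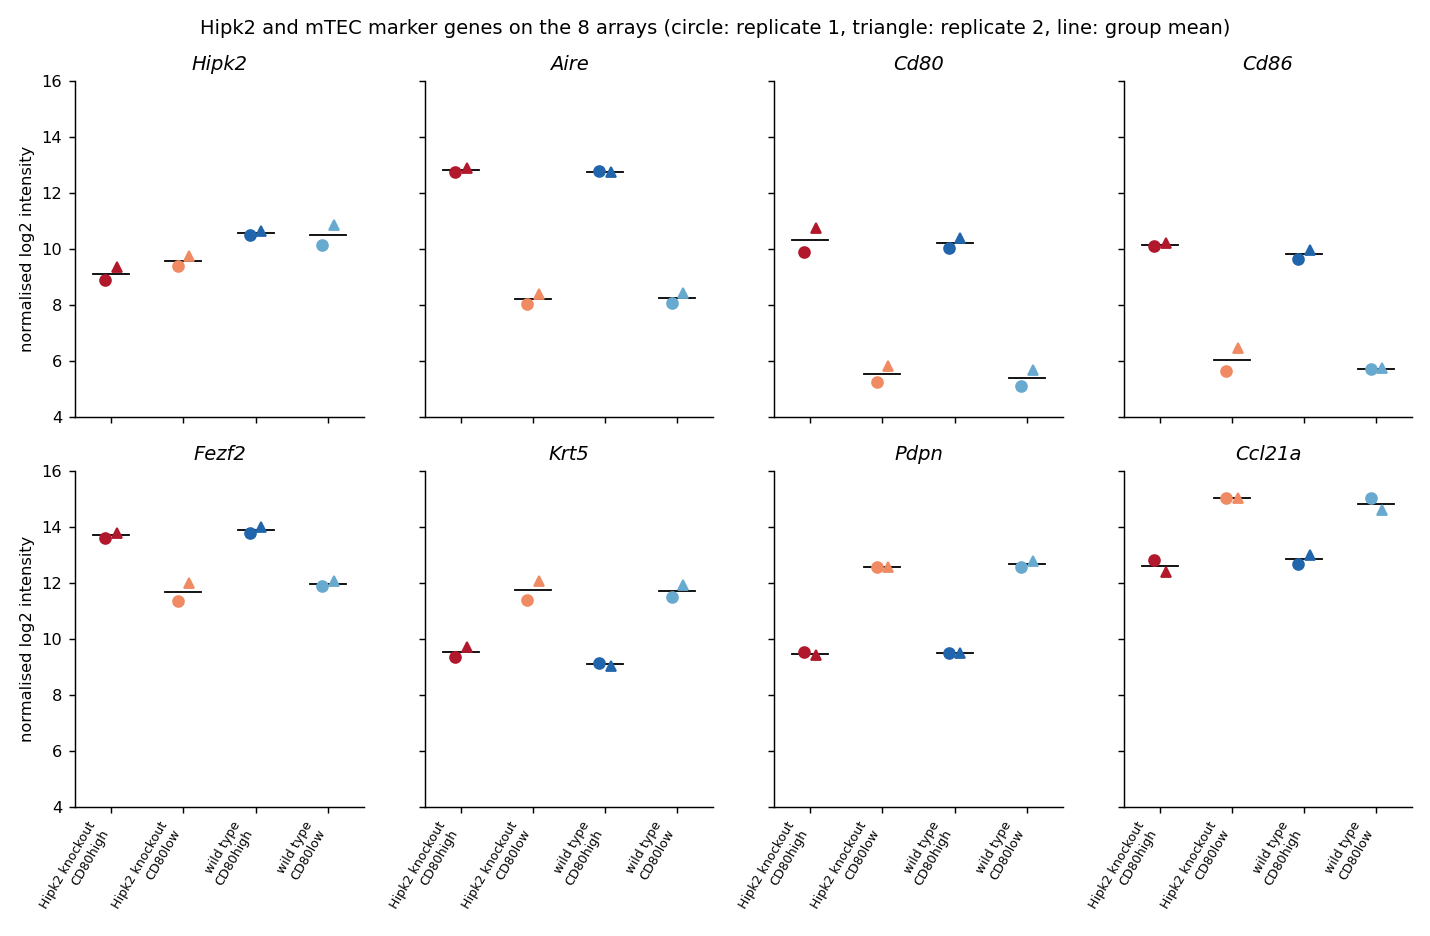
Normalised log2 intensity of Hipk2 and 7 mTEC genes on the 8 arrays, with circles for replicate 1, triangles for replicate 2 and a line for the group mean. Aire, Cd80, Cd86 and Fezf2 are higher in CD80high mTECs and Krt5, Pdpn and Ccl21a are lower in CD80high mTECs, in knockout and in wild type; Hipk2 is lower on every knockout array than on every wild-type array.

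Without Hipk2, 5662 genes (40.7% of those tested) differed between the subsets at an adjusted p under 0.05: 3089 (22.2%) were higher and 2573 (18.5%) were lower in knockout CD80high mTECs. Of these, 3360 (24.2%) were at least 2-fold different, 2086 (15.0%) higher and 1274 (9.17%) lower. Among all tested genes, 1488 were at background on both arrays of knockout CD80low mTECs only and could only be higher in CD80high. Another 399 were at background on both arrays of knockout CD80high mTECs only and could only be lower. Of the 3360 genes, 2683 were above background on at least 1 array of each knockout subset. In wild-type mTECs 5766 genes (41.5%) differed, 3145 (22.6%) higher and 2621 (18.9%) lower in CD80high cells, and 3450 (24.8%) were at least 2-fold different, 2090 (15.0%) higher and 1360 (9.79%) lower. The median difference of all genes was -0.02 in the knockout and -0.01 in wild type. The arrays of the 2 knockout subsets did not overlap for 71.9% of the genes tested, with CD80high above for 35.6% and below for 36.3%. These shares are what a list of genes has to be read against in the paragraphs that follow. The test compares groups of 2 arrays with a spread pooled over all 8; an exact permutation test of 2 against 2 arrays cannot give a two-sided p under 0.333.

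The knockout and the wild-type comparison share no arrays, but they share the quantile normalisation and 1 estimate of the spread per gene. Same-numbered arrays of a subset also deviated together across the genotypes, with a correlation of 0.511 in CD80low and 0.469 in CD80high mTECs. The 2 comparisons are therefore not independent. Their differences had a correlation of 0.957 across the 13895 genes, which are not independent replicates, with a slope of 0.953 for the knockout on the wild type. Both comparisons called 4676 genes, which is 82.6% of the knockout calls and 81.1% of the wild-type calls, and 4675 of them in the same direction. The exception was Cacng4, a calcium channel subunit, with differences of 0.68 in the knockout and -0.58 in wild type at intensities near background. Of the 3360 genes called and 2-fold different in the knockout, 2874 (85.5%) were 2-fold different the same way in wild type. Of 986 genes called in the knockout alone, 934 had the same sign in wild type, and of 1090 called in wild type alone, 1027 had the same sign in the knockout.

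**Figure D2:**
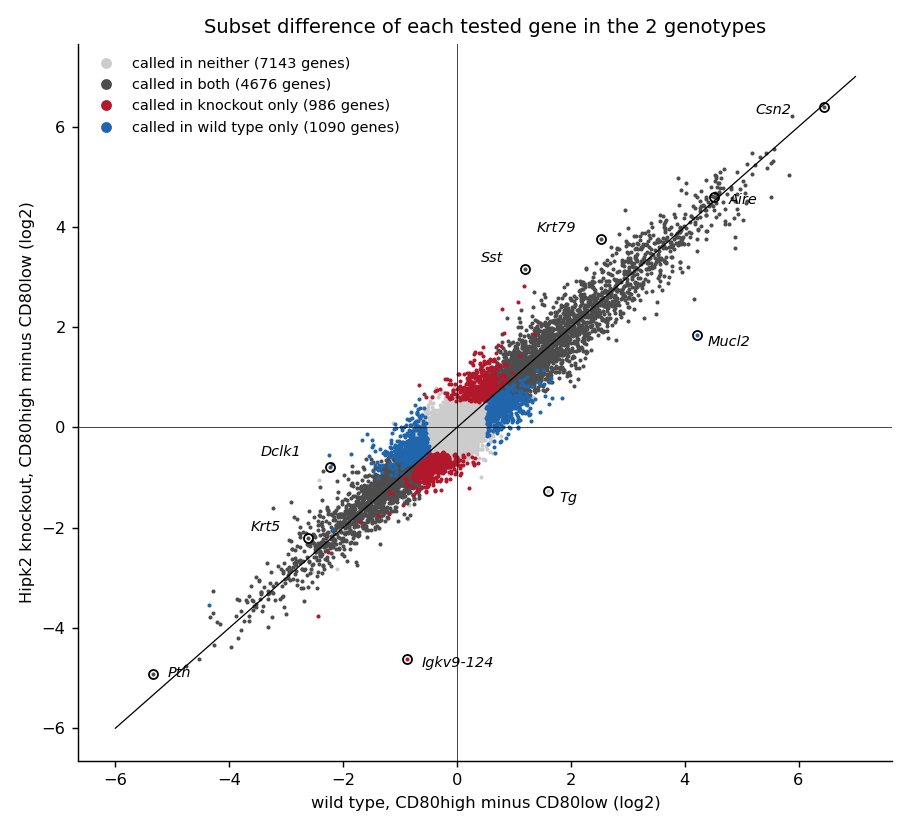
Log2 difference between CD80high and CD80low mTECs for each of 13895 tested genes in the knockout (vertical axis) and in wild type (horizontal axis), coloured by where the gene was called; the line marks equal differences. Most genes lie along the line, with Csn2 and Aire at the upper end and Pth at the lower end, while Mucl2, Tg and an immunoglobulin kappa segment lie away from it.

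The largest rises without Hipk2 were those of Csn2 and Pgc. Csn2, the milk protein beta-casein, read 13.78 and 13.67 in knockout CD80high mTECs, against 6.60 and 8.06 in knockout CD80low mTECs, and was 83.9-fold higher (log2 6.39 ± 0.49, adjusted p = 4.76e-06). Pgc, the stomach proenzyme progastricsin, read 11.33 and 11.27 in knockout CD80high mTECs, against 5.52 and 4.67 in knockout CD80low mTECs, and was 73.8-fold higher (log2 6.20 ± 0.29, adjusted p = 6.15e-07). Pgc was above background on 1 of the 2 knockout CD80low arrays, so its fold is set against a level that was measured on 1 array, and in both genes the 2 subsets were far apart.

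Vmo1, the homologue of a vitelline membrane protein of the hen's egg, read 13.26 and 13.23 in knockout CD80high mTECs, against 6.96 and 8.42 in knockout CD80low mTECs. Calb2, the calcium-binding protein calretinin, read 10.45 and 10.17 in knockout CD80high mTECs and was not above background in knockout CD80low mTECs, which makes it at least 31.0-fold higher. The other 8 of the 12 largest rises were Hal, the histidine-degrading enzyme of skin and liver, Serpinb12, an intracellular protease inhibitor, the intestinal apolipoprotein Apoa4, the neuropeptide galanin (Gal), the acute phase protein Saa3, the isoprenoid enzyme Idi2, the gut hormone peptide YY (Pyy) and the cornified envelope precursor Sprr1b. Their differences lay between 5.17 and 5.47, and those of the same 12 genes in wild type between 4.68 and 6.45.

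The largest falls were those of Pth and Scarf2. Pth, parathyroid hormone, read 7.46 and 7.08 in knockout CD80high mTECs, against 12.55 and 11.81 in knockout CD80low mTECs, a fall of 4.91 on the log2 scale (SE 0.37, adjusted p = 4.36e-06). Scarf2, a scavenger receptor family member, read 6.42 and 6.90 in knockout CD80high mTECs, against 11.57 and 11.25 in knockout CD80low mTECs (difference -4.75 ± 0.23, adjusted p = 6.15e-07). In both genes the 4 arrays split cleanly by subset. Mgp, an inhibitor of calcification in the matrix (-4.62), the myosin light chain Myl9 (-4.38), the scaffold protein Frmd6 (-4.34), the matrix proteoglycan Prelp (-4.19), the IGF-binding protein Igfbp4 (-4.04), the growth factor pleiotrophin (Ptn, -3.98), the sulfotransferase Sult5a1 (-3.92), the collagen chain Col6a2 (-3.89) and the lipid carrier Apoe (-3.86) followed.

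The remaining gene of the 12 was a variable segment of the immunoglobulin kappa light chain, a B lineage gene. It was at background in knockout CD80high mTECs and read 10.26 and 8.09 in knockout CD80low mTECs, at least 14.8-fold lower in CD80high. In wild type its difference was -0.88 and was not called.

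The promoters of these genes differ in base composition. They are shown for genes at both ends of the comparison as RefSeq gives them (assembly GRCm38.p6, bases before the annotated start, read 5′ to 3′ on the gene's strand). Capitals mark the TATAAA letters in the first 4 sequences, which are 60 bases long and end just before the start for 3 of the genes that rose most and for Aire. In the other 5, which are 100 bases long and end at the start, capitals mark every CG. Csn2 and Apoa4 stand for the rises, and Frmd6, Myl9 and Scarf2 for the falls.
Pgc (chr17:47726782-47726841, plus strand): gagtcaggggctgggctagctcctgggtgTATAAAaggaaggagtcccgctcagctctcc
Vmo1 (chr11:70514617-70514676, minus strand): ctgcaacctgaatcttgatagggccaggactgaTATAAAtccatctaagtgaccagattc
Sprr1b (chr3:92438780-92438839, minus strand): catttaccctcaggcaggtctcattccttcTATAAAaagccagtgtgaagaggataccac
Aire (chr10:78043611-78043670, minus strand): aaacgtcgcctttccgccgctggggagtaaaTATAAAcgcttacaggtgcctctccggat
Csn2 (chr5:87699426-87699525, minus strand): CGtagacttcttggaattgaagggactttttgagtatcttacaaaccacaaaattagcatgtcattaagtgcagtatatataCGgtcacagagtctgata
Apoa4 (chr9:46240744-46240843, plus strand): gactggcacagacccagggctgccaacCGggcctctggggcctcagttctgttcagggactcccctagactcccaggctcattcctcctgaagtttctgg
Frmd6 (chr12:70825414-70825513, plus strand): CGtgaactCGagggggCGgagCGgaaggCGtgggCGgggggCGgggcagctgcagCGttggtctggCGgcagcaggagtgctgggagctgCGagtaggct
Myl9 (chr2:156775364-156775463, plus strand): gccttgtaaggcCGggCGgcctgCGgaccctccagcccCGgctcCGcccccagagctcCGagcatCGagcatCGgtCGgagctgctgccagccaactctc
Scarf2 (chr16:17797182-17797281, plus strand): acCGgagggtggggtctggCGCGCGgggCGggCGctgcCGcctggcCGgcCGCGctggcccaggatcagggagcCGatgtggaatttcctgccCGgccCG

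The TATAAA match began 27 to 31 bases before the start in the 4 genes shown. Over the whole window of 250 bases before to 50 bases after the start, Csn2 held 2 CGs and Apoa4 held 1, against 35 in Frmd6, 20 in Myl9 and 34 in Scarf2. The window of Pgc held 9, that of Vmo1 2, that of Sprr1b 3 and that of Aire 16. The genes shown other than Aire were chosen after their values were seen. Among the genes called and at least 2-fold different, those that rose departed in CpG ratio from all tested genes, while those that fell lay near them. These genes were not restricted to those above background in both knockout subsets. A window was at hand for 1602 protein-coding genes called and at least 2-fold higher in knockout CD80high mTECs, for 997 called and at least 2-fold lower, and for 10753 tested genes in all. The median observed-over-expected CpG ratio was 0.339 in the genes that rose and 0.706 in those that fell, against 0.708 over all tested genes, and 30.2%, 63.5% and 61.7% of the windows exceeded 0.6. A TATAAA match on the gene's strand, 45 to 16 bases before the start, was in 8.30% of the windows of genes that rose and 1.40% of those that fell, against 2.62% of all tested genes and 3.00% of all 17492 RefSeq windows.

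Other motif letters were searched on both strands over the whole window. The AP-1 letters TGANTCA were in 10.8% of the windows of genes that rose and 4.61% of those that fell, against 6.10% of all tested genes. The NF-kB letters GGG, any 2 bases, then TTTCC were in 3.06% and 0.802%, against 1.54% of all tested genes. The ETS letters CCGGAAG were rarer on both sides, in 5.62% of the genes that rose and 7.72% of those that fell, against 15.3% of all tested genes. Over all RefSeq windows the shares were 7.08% for AP-1, 1.56% for NF-kB and 11.9% for ETS. A match describes letters in the window and is not evidence of binding, and genes of one family can share promoter sequence.

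**Figure D3:**
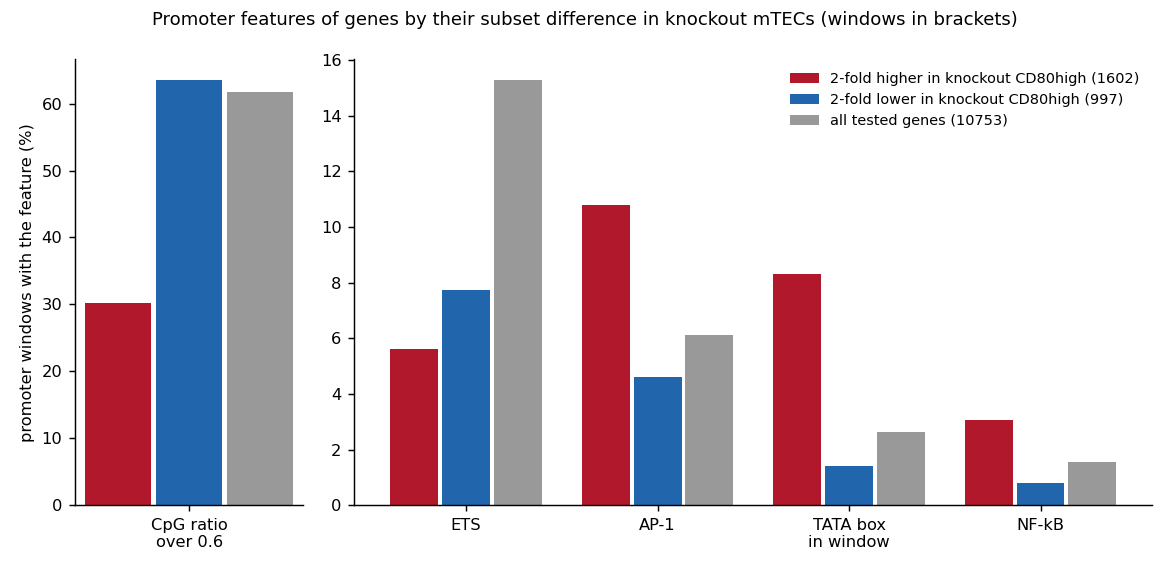
Share of promoter windows (percent) with a CpG ratio over 0.6 and with ETS, AP-1, TATA and NF-kB letters among genes called and at least 2-fold higher in knockout CD80high mTECs (1602 windows), genes called and at least 2-fold lower (997) and all tested genes (10753). The genes that rose hold fewer CpG-rich windows and more TATA, AP-1 and NF-kB matches than all tested genes.

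Genes that mark and equip mature mTECs were examined by lists. Of 12 tested costimulatory and checkpoint ligands, 9 rose and 1 fell, with a median difference of 1.69 beside -0.02 over all genes. Cd80 is 1 of the 9, and its rise follows from the sort on CD80 protein. Besides Cd80 and Cd86, Cd40, the receptor through which T cells act on mTECs, read 12.97 and 12.84 in knockout CD80high mTECs, against 9.86 and 10.46 in knockout CD80low mTECs (difference 2.74, adjusted p = 4.31e-05). Cd70, the ligand of CD27, rose by 4.38 (adjusted p = 1.59e-05), and Tnfsf9, the ligand of 4-1BB, by 3.20 (adjusted p = 2.04e-06). Cd274, which encodes PD-L1, was the member that fell, at 11.90 and 12.34 in knockout CD80high mTECs, against 12.80 and 12.81 in knockout CD80low mTECs (difference -0.69, adjusted p = 0.0448). PD-L2 (Pdcd1lg2) rose by 1.40.

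Of 14 mTEC regulators and Aire partners, 7 rose and 4 fell, with a median of 0.51. Next to Aire, the interferon regulatory factor Irf4 read 10.24 and 10.51 in knockout CD80high mTECs, against 7.35 and 7.77 in knockout CD80low mTECs, and rose by 2.82 (adjusted p = 4.5e-06). The deacetylase Sirt1, a partner of Aire, rose by 2.23, Irf8 by 2.05 and Spib, an ETS family factor, by 1.06. Ets1, another ETS family member, read 7.69 and 7.96 in knockout CD80high mTECs, against 10.78 and 9.74 in knockout CD80low mTECs, and fell by 2.43. Top1, which acts with Aire at active chromatin, fell by 0.68 on its brightest probe, but its probes disagreed in sign. Only 1 or 2 of the 14 fell when any 1 of the 4 knockout arrays was left out, and 7 still rose.

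Antigen presentation genes were split. Of 16 MHC class II presentation genes 10 rose and 1 fell, with a median of 0.82. The largest rises were in Ctsh, a lysosomal cysteine protease (3.99), and in H2-Ob and H2-Oa, which modulate peptide loading (3.01 and 2.63). Ciita, the master regulator of class II transcription, read 10.60 and 10.56 in knockout CD80high mTECs, against 9.26 and 9.56 in knockout CD80low mTECs, a rise of 1.17 (adjusted p = 0.00111). H2-Aa, a class II alpha chain, rose by 0.93. H2-Ab1, its beta chain, was bright in both subsets, at 14.63 and 14.74 in knockout CD80high mTECs, against 14.80 and 14.72 in knockout CD80low mTECs, and its probes disagreed in sign. Of 14 MHC class I and immunoproteasome genes 3 rose, a share of 21.4% that was near the 22.2% of all genes, and 1 fell. The proteasome genes Psmb10, Psme1 and Psme2 rose by 0.61 to 0.91, and the peptide transporter Tap1 fell by 0.71. The median of the list was 0.43. That median was 0.14 without knockout CD80high replicate 2 and 0.25 without knockout CD80low replicate 1, and 1 gene rose when either knockout CD80low array was left out.

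Of 14 chemokines made by mTECs, 8 rose and 3 fell, with a median of 1.02. Ccl5 (4.13), Ccl17 (3.63), Xcl1 (3.28), Ccl20 (2.89) and Ccl27a (2.71) rose most. Ccl21a, which draws positively selected thymocytes into the medulla, read 12.82 and 12.38 in knockout CD80high mTECs, against 15.03 and 15.03 in knockout CD80low mTECs, and fell by 2.42 (adjusted p = 1.87e-05). It was the brightest probe on both knockout CD80low arrays, where quantile normalisation gives the top of the scale; on log2 of the deposited values the difference was -2.40. Cx3cl1 fell by 1.35. Ccl19, which binds the same receptor as Ccl21a, rose by 1.28, so these 2 ligands of CCR7 ran opposite ways.

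In the RANK, lymphotoxin and NF-kB list 12 of 20 genes rose and 2 fell, with a median of 1.06. Tnfrsf11a, the RANK receptor, read 10.25 and 10.20 in knockout CD80high mTECs, against 8.48 and 9.23 in knockout CD80low mTECs, and rose by 1.37 (adjusted p = 0.00227). Tnfrsf11b, its soluble decoy osteoprotegerin, read 11.79 and 12.02 in knockout CD80high mTECs, against 7.96 and 8.55 in knockout CD80low mTECs, and rose by 3.65 (adjusted p = 1.49e-06). The subsets did not overlap in either gene. The adaptor Traf1 rose by 2.91, Traf6 by 1.40 and the ubiquitin ligase Birc2 by 1.27. The lymphotoxin receptor Ltbr fell by 0.94 and the adaptor Traf5 by 1.00. In both genes the 2 knockout CD80high arrays lay below the 2 knockout CD80low arrays.

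Among the subunits and inhibitors of that list, Nfkb2 rose by 1.57, Rel by 1.48 and the inhibitor Nfkbia by 1.46. Their promoters hold the NF-kB letters GGG, any 2 bases, then TTTCC, and are shown for that reason. These letters were in 5 of the 16 windows at hand for the list (31.25%), against 1.54% of all tested genes. What part the motif had in the differences was not tested. All lie before the start in assembly GRCm38.p6, with the matching letters of either strand in capitals. Nfkb2, Nfkbia and their windows were chosen after their values were seen.
Nfkb2 (chr19:46304677-46304736, plus strand): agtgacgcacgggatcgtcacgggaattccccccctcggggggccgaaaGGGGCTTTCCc
Nfkbia (chr12:55492648-55492707, minus strand): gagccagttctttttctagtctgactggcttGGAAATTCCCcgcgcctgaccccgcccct
Rel (chr11:23771026-23771085, minus strand): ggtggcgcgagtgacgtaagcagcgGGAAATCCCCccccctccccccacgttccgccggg

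Tissue-restricted genes rose broadly without Hipk2. Over 8 lists of tissue antigens, 107 genes were tested, of which 82 (76.6%) rose and 5 (4.67%) fell, with a median difference of 1.93; in wild type 85 rose and 3 fell, with a median of 2.11, and 83 were called the same way in both genotypes. For 34 of the 107, knockout CD80low mTECs were at background on both arrays, so that these genes entered the test through another group and could differ one way only. Of 15 Aire-dependent genes 13 rose and none fell (0 lower), with a median of 3.31. Ins2, insulin, read 8.49 and 7.97 in knockout CD80high mTECs and was not above background in knockout CD80low mTECs, at least 7.34-fold higher. Csn1s1, a casein, was at least 10.2-fold higher by the same bound, and Npy, neuropeptide Y, rose by 4.24. Mucl2 and Tg were not called (differences 1.85 and -1.27). In both the knockout CD80low replicates lay far apart, at 9.74 and 4.98 for Mucl2 and at 5.25 and 11.66 for Tg, and without replicate 1 the differences were 4.23 and -4.47, and without replicate 2 they were -0.53 and 1.94.

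Of 9 Aire-independent genes 8 rose, with a median of 2.58. For 3 of the 9, knockout CD80low mTECs were at background on both arrays. Gad1, the enzyme that makes the transmitter GABA, read 9.30 and 9.14 in knockout CD80high mTECs, against 5.51 and 5.77 in knockout CD80low mTECs (difference 3.58, adjusted p = 1.94e-06). The apolipoprotein Apoc3 rose by 4.25, the thyroxine carrier Ttr by 3.53 and the keratin Krt10 by 2.22. Crp, an acute phase protein of the liver often used as an Aire-independent marker, read 10.07 and 9.81 in knockout CD80high mTECs, against 9.65 and 10.53 in knockout CD80low mTECs, and its subsets overlapped.

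By organ, 18 of 21 pancreas and stomach genes rose (median 2.56), among them Reg1 (4.67), the lipase cofactor Clps (3.67) and the gastric protein Gkn1 (at least 7.62-fold). Of 15 intestine and kidney genes 12 rose and 1 fell (median 2.18), led by the antimicrobial lectin Reg3b (4.19) and the guanylin peptides Guca2b and Guca2a (3.35 and 3.33), while the brush border peptidase Anpep fell by 1.07. Of 14 liver genes 10 rose and 1 fell (median 1.30), with Apoa1 and Apoa2 at 4.48 and 4.34, and Apoc1 at -0.59. All 11 brain and retina genes had a positive difference and 10 of them rose (median 1.47), such as the synaptic vesicle protein Syt1 (2.29) and the photoreceptor transducin Gnat1 (1.73). Of 8 testis genes 3 rose (median 0.45), the sperm proteins Ldhc (at least 5.02-fold), Prm1 (2.63) and Acrv1 (2.17). Many of these genes were at background on both knockout CD80low arrays and could differ one way only. They were 11 of the pancreas and stomach genes, 5 of the brain and retina genes and 2 of the testis genes. The liver list and the intestine and kidney list held 3 each.

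In the salivary, lacrimal and mammary list 8 of 14 genes rose and 3 fell, with a median of 1.03. For 4 of the 14, knockout CD80low mTECs were at background on both arrays. The club cell secretoglobin Scgb1a1 read 10.98 and 10.90 in knockout CD80high mTECs, against 5.96 and 6.15 in knockout CD80low mTECs (difference 4.88, adjusted p = 6.15e-07), and the whey protein Wap was at least 11.2-fold higher. Bpifa1, a secreted airway protein, fell by 1.26 and read 10.56 and 10.24 in knockout CD80high mTECs, against 11.74 and 11.58 in knockout CD80low mTECs. Pip, a secreted gland protein, read 5.91 and 5.70 in knockout CD80high mTECs, against 8.08 and 4.89 in knockout CD80low mTECs, so that 1 knockout CD80low array lay above and the other below. Without knockout CD80low replicate 1 this list had 8 rises and 1 fall and a median of 1.16, and it also had 1 fall without knockout CD80high replicate 1.

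**Figure D4:**
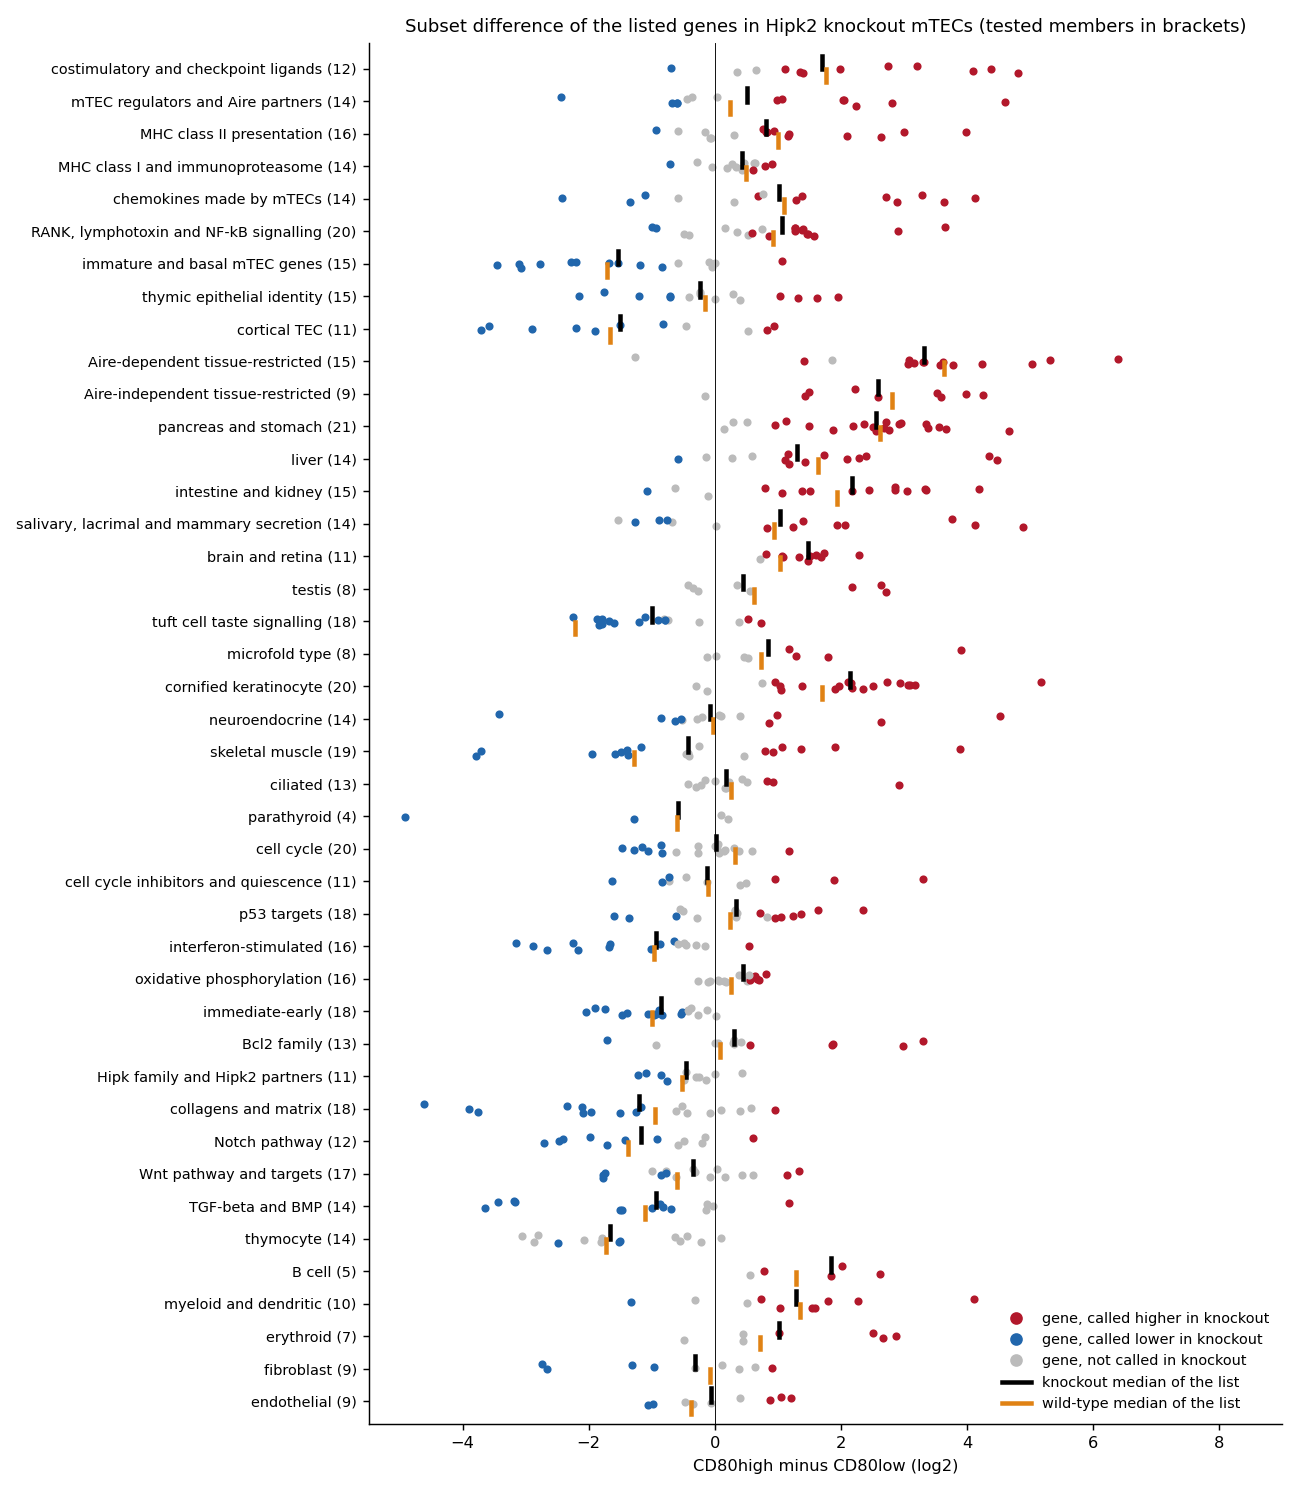
Log2 difference between CD80high and CD80low mTECs in the knockout for each tested gene of 42 lists (points, red where called higher, blue where called lower, grey where not called), with the list's median in the knockout (black) and in wild type (orange); tested members in brackets. Tissue antigen lists lie to the right of 0 and the immature, interferon, immediate-early, TGF-beta and Notch lists mostly to the left.

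The same genes were also grouped by the stem of their symbol, for 238 stems with 8 or more tested genes; the stems and runs named here were chosen after their values were seen. Of 24 kallikrein peptidase genes (Klk) 21 rose, as did 18 of 22 beta-defensin genes (Defb), 12 of 14 small proline-rich envelope genes (Sprr), 7 of 8 pregnancy-specific glycoprotein genes (Psg) and 30 of 43 keratin genes (Krt). Among 51 cytochrome P450 genes (Cyp) 30 rose and 4 fell. Of 72 olfactory receptor genes (Olfr), 6 rose and 8 fell, shares of 8.33% and 11.1% against 22.2% and 18.5% over all genes. Stems with mostly falls were the histone deacetylases (Hdac, 7 of 10) and the stems Man (7 of 9), Mapk (9 of 15), Mcm (5 of 8) and Trp (5 of 9). A stem is the part of a symbol before its first digit, so it can hold genes outside the family it is named for. Probes of near-identical family members can take up each other's RNA, so these counts may hold fewer independent measurements than genes. Genes at background on both knockout CD80low arrays only, 1488 of all tested genes, could only be higher in CD80high. How many such genes each stem held was not counted.

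Along the chromosomes, 13879 tested genes could be placed. Over all tested genes, 15.0% were called and at least 2-fold higher in knockout CD80high mTECs, and 9.17% were called and at least 2-fold lower. There were 48 runs of 4 or more adjacent tested genes that were all called and at least 2-fold higher in knockout CD80high mTECs, holding 240 genes, and 7 such runs in the other direction, holding 30. The longest held 12 kallikrein genes on chromosome 7, with differences of 1.67 to 4.80. A run of 8 on chromosome 3 held the Sprr genes and Ivl (1.03 to 5.17), another run of 8 there held Lce genes (1.10 to 2.82), and runs of 6 held the casein genes on chromosome 5 (1.40 to 6.39), the Reg genes on chromosome 6 (1.41 to 4.67) and lipocalin genes on chromosome 2 (3.05 to 4.05). In wild type all 12 kallikrein genes and all 8 genes of the Sprr run were also called higher, and 2 of the 8 genes of the Lce run. The differences of that Lce run in wild type were all positive, between 0.41 and 1.35. The runs were not split by background, and genes at background on both arrays of 1 knockout subset could differ one way only.

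The list of immature and basal mTEC genes ran against the tissue antigens, with 10 of 15 falls, 1 rise and a median of -1.54. Pdpn, podoplanin, read 9.53 and 9.41 in knockout CD80high mTECs, against 12.57 and 12.57 in knockout CD80low mTECs, and fell by 3.10 (adjusted p = 1.1e-06). Cav1, the coat protein of caveolae, fell by 3.45, the IGF-binding protein Igfbp5 by 3.07, the laminin chain Lamb3 by 2.77 and the basal keratin Krt14 by 1.18. The member that rose was Col17a1, a collagen of hemidesmosomes, at 9.78 and 10.28 in knockout CD80high mTECs, against 8.79 and 9.16 in knockout CD80low mTECs (difference 1.06, adjusted p = 0.0316). Krt15, a keratin of basal progenitors, had a difference of 0.00 in the knockout and rose by 1.08 in wild type.

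Matrix genes shared that direction. Of 18 collagen and matrix genes 10 fell and 1 rose, with a median of -1.21. Col6a1, with Col6a2 a chain of collagen VI, read 9.26 and 9.48 in knockout CD80high mTECs, against 12.85 and 13.39 in knockout CD80low mTECs (difference -3.76, adjusted p = 2.24e-06), and the matrix glycoprotein Sparc fell by 2.09. Col1a1, Col1a2 and Col3a1, the fibrillar collagens of fibroblasts, were dim, between 4.79 and 6.62 on the 4 knockout arrays, and did not pass the test. Nid1, a basement membrane protein, rose by 0.96.

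Signalling lists also lay below 0. Of 14 TGF-beta and BMP genes 10 fell and 1 rose, with a median of -0.94. The receptor Tgfbr2 read 6.66 and 7.26 in knockout CD80high mTECs, against 10.87 and 10.36 in knockout CD80low mTECs, and fell by 3.65 (adjusted p = 4.11e-06). The targets Id1 and Id2 fell by 3.44 and 3.19, the secreted inhibitor Fst by 3.16 and the receptor Tgfbr1 by 1.47, while the ligand Tgfb2 rose by 1.18. Tgfb1 did not pass the test (-0.13). Without knockout CD80low replicate 2 the list had 6 falls.

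Of 12 Notch pathway genes 7 fell and 1 rose, with a median of -1.17. The ligand Jag2 read 5.22 and 5.40 in knockout CD80high mTECs, against 8.03 and 8.01 in knockout CD80low mTECs, and fell by 2.71 (adjusted p = 3.13e-06). The target Hey1 fell by 2.48, the coactivator Maml2 by 2.40, the receptor Notch3 by 1.97 and the ligand Dll1 by 1.43. The receptors Notch1 and Notch2 had differences of -0.58 and -0.49 that did not pass, and Mfng, a glycosyltransferase that modifies Notch, rose by 0.60. Of 17 Wnt pathway genes 5 fell and 2 rose (29.4% and 11.8%, against 18.5% and 22.2% of all genes), with a median of -0.34. The ligand Wnt4 fell by 1.74 and the inhibitors Kremen2 and Dkk3 by 1.78 and 1.77, while the ligand Wnt10a rose by 1.34 and the transcriptional repressor Tcf7l1 by 1.15. The Wnt median was -0.19 without knockout CD80high replicate 1 and -0.52 without knockout CD80high replicate 2, and 3 genes of that list fell without knockout CD80high replicate 2 or knockout CD80low replicate 2.

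Interferon-stimulated genes were lower in the mature subset. Of 16 tested, 10 fell and 1 rose, with a median of -0.94. Ifit3, which binds viral RNA complexes, read 9.59 and 9.69 in knockout CD80high mTECs, against 12.78 and 12.81 in knockout CD80low mTECs, and fell by 3.15 (adjusted p = 1.1e-06). The GTPases Mx2 and Gbp2 fell by 2.88 and 2.67, the regulator Irf7 by 2.24 and the ubiquitin-like modifier Isg15 by 1.69. Rsad2, an antiviral enzyme, fell by 0.65. The 1 member that rose was Usp18, which removes Isg15 from proteins, by 0.55 (adjusted p = 0.0477).

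The interferon response element letters TTTC, any 2 bases, then TTTC, searched on both strands, were in 8 of the 13 windows at hand for this list (61.5%), against 3.12% of all tested genes and 3.40% of all RefSeq windows. Their TTTC stretch is shared with the NF-kB letters, so a match to one can overlap a match to the other. Sites in 4 promoters of genes that fell are shown with the matching letters of either strand in capitals. Rsad2 was chosen after its values were seen, and what part the motif had in the differences was not tested. The 3 matches in Isg15 overlap.
Ifit3 (chr19:34583382-34583441, plus strand): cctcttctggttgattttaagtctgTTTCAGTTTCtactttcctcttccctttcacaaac
Isg15 (chr4:156200850-156200909, minus strand): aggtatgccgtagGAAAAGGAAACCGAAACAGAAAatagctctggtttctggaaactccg
Rsad2 (chr12:26456538-26456597, minus strand): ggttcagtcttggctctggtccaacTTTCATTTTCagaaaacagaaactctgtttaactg
Gbp2 (chr3:142620579-142620638, plus strand): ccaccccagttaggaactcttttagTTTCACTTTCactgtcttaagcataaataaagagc

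Immediate-early genes, which respond within minutes to signals and to handling of cells, fell in 12 of 18 cases with 0 rises, and their median was -0.86. Atf3 read 11.51 and 11.38 in knockout CD80high mTECs, against 13.34 and 13.34 in knockout CD80low mTECs, and fell by 1.90 (adjusted p = 3.19e-05). Klf2 fell by 2.05, Jun by 1.74, Ier3 by 1.48, Fosb by 1.40 and Fos by 0.89. The labels do not give the time between dissociation and lysis, and its part in these values was not tested.

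Genes of mimetic and late mTEC types did not move as one. Of 20 cornified keratinocyte genes 17 rose, with a median of 2.14. For 4 of the 20, knockout CD80low mTECs were at background on both arrays. Ivl, involucrin, read 8.94 and 9.24 in knockout CD80high mTECs, against 5.74 and 6.26 in knockout CD80low mTECs, and rose by 3.09 (adjusted p = 4.05e-06), and Sprr2d and the keratinocyte protease Casp14 rose by 3.18 and 2.74. Lor, loricrin, the main envelope protein, rose by 1.96, though its knockout CD80low replicates were far apart at 7.88 and 9.55. In wild type 13 of the 20 rose, with a median of 1.70. The mean over the list was 8.72 and 8.64 in knockout CD80high mTECs, against 6.39 and 6.95 in knockout CD80low mTECs, and 8.82 and 8.85 in wild-type CD80high mTECs, against 6.99 and 7.41 in wild-type CD80low mTECs.

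Tuft cell genes were mostly lower in knockout CD80high mTECs, with 12 of 18 falls, 2 rises and a median of -1.001. Trpm5, the cation channel of taste signalling, read 6.36 and 6.10 in knockout CD80high mTECs, against 8.13 and 8.00 in knockout CD80low mTECs, a fall of 1.83 (adjusted p = 0.00211). The taste G protein Gnat3 fell by 2.26, the phospholipase Plcb2 by 1.87, and the leukotriene enzymes Alox5 and Alox5ap by 1.78 and 1.67. The members that rose were the leukotriene synthase Ltc4s (0.73) and the calcium channel Itpr3 (0.53).

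In wild type 15 of the 18 tuft genes fell, with a median of -2.21. Its mean was 6.97 and 6.97 in knockout CD80high mTECs, against 7.96 and 7.95 in knockout CD80low mTECs, and 7.42 and 7.28 in wild-type CD80high mTECs, against 9.60 and 8.92 in wild-type CD80low mTECs. The 2 wild-type CD80low arrays therefore stood above the other 6. The difference between the genotypes' differences was positive for 18 of 18 genes (49.8% of all genes) and had an unadjusted p under 0.05 for 10, against 3.36% of all genes, and an adjusted p under 0.05 for 0. The genes of a list vary together across arrays, and the list was drawn up with earlier results of these data known.

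Of 19 skeletal muscle genes 8 fell and 6 rose, with a median of -0.42, against 11 falls, 5 rises and -1.29 in wild type. The knockout median was -0.66 without knockout CD80high replicate 1 and -0.20 without knockout CD80high replicate 2. Acta1, skeletal actin, read 7.10 and 6.87 in knockout CD80high mTECs, against 10.66 and 10.73 in knockout CD80low mTECs (difference -3.71, adjusted p = 6.26e-07). The myosin light chains Myl1 and Mylpf fell by 3.79 and 1.95 and the muscle regulator Myog by 1.40, while the embryonic myosin Myh3 was at least 9.50-fold higher and the acetylcholine receptor subunit Chrna1 rose by 1.37. Of 14 neuroendocrine genes 4 rose and 4 fell (28.6% each, against 22.2% and 18.5% of all genes), with a median of -0.07. Calca, the precursor of calcitonin and CGRP, rose by 4.52 and the regulator Insm1 by 2.63, whereas the granule protein Chga read 7.72 and 6.93 in knockout CD80high mTECs, against 11.13 and 10.36 in knockout CD80low mTECs, and fell by 3.42. Without knockout CD80low replicate 1, 1 neuroendocrine gene fell and the median was -0.45, and 2 fell without knockout CD80high replicate 1 or knockout CD80low replicate 2.

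Among 8 microfold-type genes 4 rose and 0 fell (median 0.84), with the chemokine Ccl9 at 3.90, while the uptake receptor Gp2 was bright in both subsets (difference 0.46, not called). Of 13 ciliated cell genes 3 rose (median 0.17), a share of 23.1% that was near the 22.2% of all genes. The regulator Foxj1 had overlapping subsets, and the ciliary dynein Dnah9 rose by 2.92. The ciliated median lay between 0.02 and 0.44 when 1 knockout array was left out. Of 4 parathyroid genes, 2 fell: Pth, as above, and the surface glycoprotein Cd200 by 1.28.

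**Figure D5:**
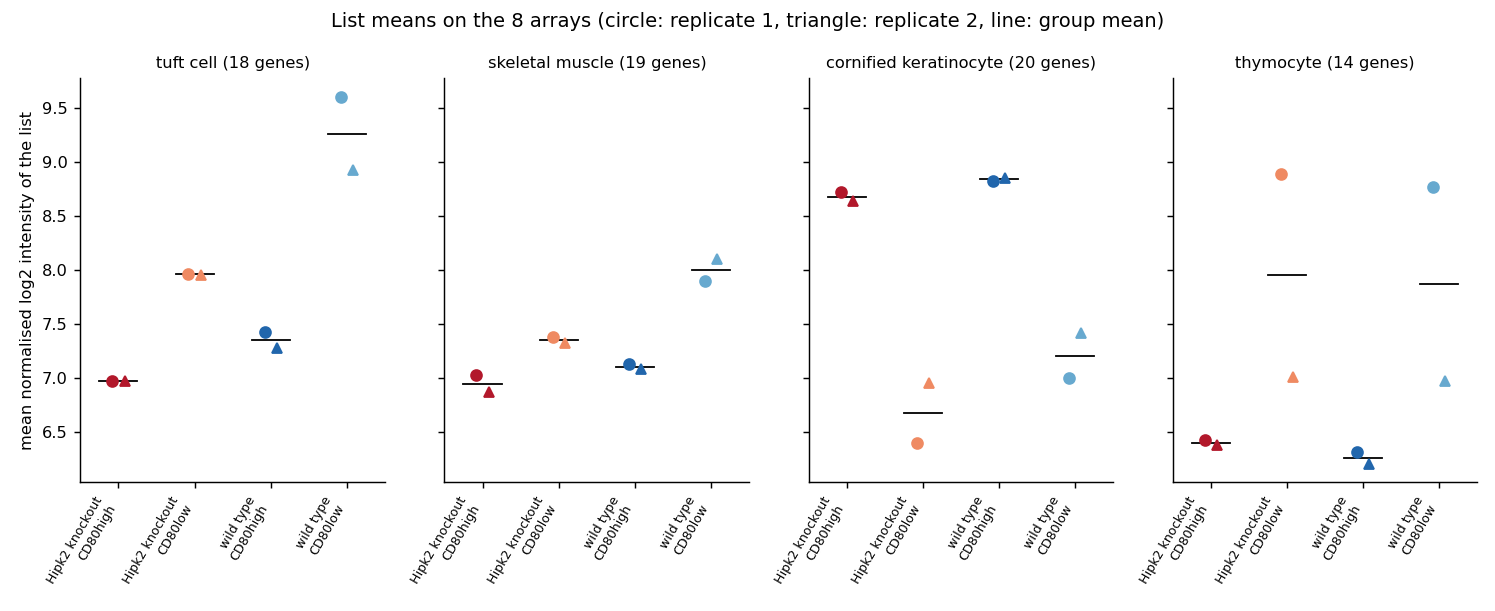
Mean normalised log2 intensity over the tested genes of 4 lists on each of the 8 arrays, with circles for replicate 1, triangles for replicate 2 and a line for the group mean. The tuft cell mean is highest on the 2 wild-type CD80low arrays, the cornified keratinocyte mean is high on all 4 CD80high arrays, and the thymocyte mean is near 9 on replicate 1 and near 7 on replicate 2 of CD80low mTECs in both genotypes.

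Cell cycle genes did not shift together. Of 20 tested, 1 rose and 6 fell in knockout CD80high mTECs, with a median of 0.02. Cdk1, the mitotic kinase, rose by 1.18, and the helicase subunits Mcm2, Mcm6, Mcm4 and Mcm5 fell by 1.48, 1.29, 1.15 and 1.05. Mki67 read 7.82 and 8.30 in knockout CD80high mTECs, against 8.26 and 8.39 in knockout CD80low mTECs, so its subsets overlapped. In wild type 4 of the 20 rose and 4 fell, with a median of 0.33. The knockout median was below 0 whichever 1 of the 4 knockout arrays was left out, down to -0.33 without knockout CD80low replicate 1.

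Of 18 targets of p53, a substrate of Hipk2, 7 rose and 3 fell, with a median of 0.34, against 8 rises, 3 falls and 0.24 in wild type. The proapoptotic Pmaip1 rose by 2.35, Zmat3 by 1.63, Bbc3 by 1.37 and the p53 ubiquitin ligase Mdm2 by 1.25, while Sesn1 fell by 1.59. Among 11 cell cycle inhibitors 3 rose and 3 fell (27.3% each, against 22.2% and 18.5% of all genes). Their median was -0.12, and -0.14 without knockout CD80high replicate 2. Cdkn1a, the p53 target p21, read 12.35 and 12.32 in knockout CD80high mTECs, against 11.42 and 11.33 in knockout CD80low mTECs, and rose by 0.96 (adjusted p = 0.00191); in wild type its difference was 0.21 and not called, and the difference between the genotypes had an unadjusted p of 0.0155 and did not pass after adjustment. Cdkn2b rose by 3.31 and Cdkn2a by 1.89.

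Of 13 Bcl2 family genes 5 rose and 1 fell, with a median of 0.31. The survival genes Bcl2a1d, Bcl2a1b and Bcl2l1 rose by 3.31, 2.99 and 1.85, and the proapoptotic Bik rose by 1.87. Bcl2, the founding survival gene, read 5.97 and 6.06 in knockout CD80high mTECs, against 7.85 and 7.62 in knockout CD80low mTECs, and fell by 1.72 (adjusted p = 6.21e-05). The 2 Bcl2a1 paralogs are nearly identical, and their probes may measure the same RNA. The Bcl2 list's median was 0.54 without knockout CD80low replicate 1. Among 11 Hipk family members and Hipk2 partners 4 fell and 0 rose, with a median of -0.46: the Hipk2-binding corepressor Daxx by 1.22, Wsb1 by 1.09, Pml by 0.86 and Siah1a, which marks Hipk2 for degradation, by 0.75. The related kinases Hipk1 and Hipk3 had differences of -0.49 and -0.25 that did not pass. Of 16 oxidative phosphorylation genes 5 rose, by 0.56 to 0.81, with a median of 0.44, but 0 to 3 rose when 1 knockout array was left out (0 without knockout CD80high replicate 1), where their median was 0.27. Of the Hipk2 list, whose median was -0.27 without knockout CD80high replicate 1, 2 fell without knockout CD80high replicate 1, knockout CD80high replicate 2 or knockout CD80low replicate 2.

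Markers of other cells differed from list to list. Of 14 thymocyte genes 3 fell and 0 rose, with a median of -1.66. The share that fell was 21.4%, near the 18.5% of all genes. Their mean was 6.42 and 6.38 in knockout CD80high mTECs, against 8.88 and 7.01 in knockout CD80low mTECs, so that CD80low replicate 1 carried most of the difference. Cd3e read 6.44 and 6.52 in knockout CD80high mTECs, against 11.34 and 7.73 in knockout CD80low mTECs (difference -3.06, adjusted p = 0.0646). The list's median was -0.55 with 2 falls when knockout CD80low replicate 1 was left out, and -1.92 with 12 falls among 16 genes tested when replicate 2 was left out. What part thymocyte RNA had in other differences was not tested.

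Of 10 myeloid and dendritic genes 7 rose and 1 fell, with a median of 1.29. Fcer1g, a signalling chain of Fc receptors, read 11.21 and 10.91 in knockout CD80high mTECs, against 6.80 and 7.09 in knockout CD80low mTECs (difference 4.12, adjusted p = 6.15e-07), and Lyz2, lysozyme, rose by 2.27 and Adgre1, F4/80, by 1.79. Itgam and Itgax, defining markers of macrophages and dendritic cells, were not above background in both arrays of any group. Of 5 B cell genes 4 rose (median 1.84), with the kinase Blk at 2.62, and 2 rose without knockout CD80high replicate 1. Of 7 erythroid genes 4 rose (median 1.02), and 3 of the 7 were at background on both knockout CD80low arrays. The globin gene Hba-a1 read 10.38 and 9.57 in knockout CD80high mTECs, against 11.17 and 7.87 in knockout CD80low mTECs, with overlap. Without knockout CD80low replicate 1 the erythroid median was 2.10, with 4 rises. The B cell median was 1.12 without knockout CD80low replicate 2.

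Of 11 cortical TEC genes 7 fell and 2 rose, with a median of -1.50. The thymoproteasome gene Psmb11, which defines cortical TECs, was not above background in knockout CD80high mTECs and read 6.11 and 5.58 in knockout CD80low mTECs. Cxcl12 fell by 3.58, the chemokine receptor Ackr4 by 3.72 and the protease Ctsl by 2.91. With both CD80low replicate 1 arrays left out another probe of Ackr4 was the brightest, with a difference of -0.38 that was not called, while the probe reported here had -3.25. Of 9 fibroblast genes 4 fell and 1 rose, with Dcn, decorin, at 10.37 and 10.63 in knockout CD80high mTECs, against 13.34 and 13.13 in knockout CD80low mTECs (difference -2.74, adjusted p = 9.43e-06), and the receptor Pdgfra between 4.90 and 6.12 on the 4 knockout arrays. Of 9 endothelial genes 3 rose and 2 fell (33.3% and 22.2%, against 22.2% and 18.5% of all genes), with a median of -0.05. Cdh5, which defines endothelium, was dim at 4.78 to 5.60. What part such cells had in the matrix, TGF-beta or tissue antigen differences was not tested.

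Whether a subset difference itself differed between the genotypes was tested by the interaction. No gene passed (0 of 13895, smallest adjusted p = 0.999941), and 467 genes (3.36%) had an unadjusted p under 0.05, 271 (1.95%) with a more positive difference in the knockout and 196 (1.41%) with a more negative one. The 95% interval of this quantity had a median half-width of 0.70 log2 units before adjustment over all genes. The smallest p was that of the tuft cell kinase Dclk1, which read 7.23 and 7.46 in knockout CD80high mTECs, against 7.99 and 8.28 in knockout CD80low mTECs, and fell by 0.79 in the knockout and by 2.24 in wild type (interaction 1.45, 95% interval 0.82 to 2.08, unadjusted p = 0.000449), a size that did not pass after adjustment. The keratin Krt79 read 9.52 and 9.39 in knockout CD80high mTECs, against 5.75 and 5.63 in knockout CD80low mTECs, and rose by 3.76 in the knockout and by 2.54 in wild type (interaction 1.22).

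The other 8 of the 10 smallest interaction p-values belonged to Cacng4, R3hcc1l, Atp8b2, Itprid1, Pnliprp2, Pp2d1, Stmn4 and Pcbd1. On the knockout arrays 7 of these 8 lay at or below 6.51. The exception was Pcbd1, a cofactor-recycling enzyme, at 7.26 and 7.38 in knockout CD80high mTECs, against 4.85 and 5.41 in knockout CD80low mTECs, with rises of 2.19 in the knockout and 0.88 in wild type. Pnliprp2, a pancreatic lipase relative, had fitted differences of 0.96 in the knockout and 2.13 in wild type. Leaving out 1 array at a time gave 0 to 4 interaction calls, among them Tg and Mucl2, whose knockout CD80low replicates lay far apart.

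Some of the calls at smaller differences did not hold with fewer arrays. The named genes were chosen partly for large differences or small p-values. With any 1 knockout array left out, a larger share of all called genes than of the named ones lost the call. Of the 194 genes named here that were called in the knockout, 27 lost the call when 1 of the 4 knockout arrays was left out. For 7 of them any of the 4 arrays was enough, and their differences nearest to 0 were 0.66 for Cacng4, 0.40 for Itpr3, 0.49 for Mfng, 0.55 for Psme1, -0.58 for Rsad2, -0.73 for Siah1a and 0.40 for Usp18. The other 20 lost it without 1 to 3 of the arrays. Those that depended on knockout CD80high replicate 2 alone were Foxn1 (0.71 without it), Mcm5 (-0.81), Nid1 (0.68), Stmn4 (0.24) and Tgfb2 (0.98), while Pdgfra (-0.74) depended on knockout CD80high replicate 1 and Mylpf (-0.79, on another probe) on knockout CD80low replicate 1. Col17a1 (0.81) and Wnt10a (0.91) lost it without knockout CD80high replicate 2 or knockout CD80low replicate 1, Dclk1 (-0.64) without knockout CD80high replicate 1 or knockout CD80low replicate 2, Pp2d1 (-0.62) without either replicate 2 array, and Tap1 (-0.68) without either replicate 1 array. Apoc1 (-0.37), Cd274 (-0.47), Lor (1.13), Ltc4s (0.45), Pml (-0.53), Psmb10 (0.53), Psmb11 (-0.57) and Top1 (-0.47) lost it without any of 3 arrays. The differences of these genes kept their sign in each case. Some changed little in size with 1 knockout array left out, such as Cacng4 (0.66 to 0.68) and Siah1a (-0.77 to -0.73). Others changed more, such as Lor (1.13 to 2.79). The 2 genes that rose in the cortical TEC list were not called when either knockout CD80high array or knockout CD80low replicate 2 was left out.

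Some named values were set against signals at or near background. Of the called genes named here, 14 were above background on 1 of the 2 knockout CD80low arrays: Acrv1, Apoa2, Apoa4, Cd80, Cdkn2a, Clps, Gnat1, Guca2a, Npy, Pcbd1, Pgc, Prm1, Sprr1b and Xcl1. A further 4, Ackr4, Ctsl, Jag2 and Pdgfra, were above it on 1 of the 2 knockout CD80high arrays. Cacng4, Pnliprp2, Pp2d1, Psmb11 and Stmn4 were at background in 1 knockout subset on both arrays, so that their fitted differences are not exact folds.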

How the data were processed

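RNA of sorted mTECs was measured on 8 Illumina mouse bead arrays, 2 for each of 4 groups. The deposited values are 1 intensity per probe and array. How the authors scaled it, the sources used here do not say; the lowest deposited intensity was 74.1 to 80.5 per array, so background had not been subtracted, and any normalisation below comes on top of the authors'. A further 16 columns of per-sample values were not used.

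In R 4.3.3 with limma 3.58.1, intensities were background-corrected with normexp (offset 16), quantile-normalised over the 8 arrays and log2-transformed. Normexp took its background from all probes. A probe was above background on an array if it exceeded the mode of the deposited intensities by 1.64485 times the spread of the values below the mode, and was tested if this held on both arrays of at least 1 group. Each gene was represented by its brightest tested probe. Of the probes, 35667 had 1 gene symbol, 0 had several and 10422 had none; 28519 of 28742 Entrez identifiers were found in RefSeq (GRCm38.p6), which changed 3273 symbols.

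Group means were fitted with lmFit and eBayes over all 8 arrays, which share 1 estimate of the spread, and p-values were adjusted over the 13895 genes by Benjamini and Hochberg, with 0.05 as the threshold for a call. All adjusted p-values in the text come from this fit. Standard errors come from the moderated spread, and "rose" and "fell" are used of called genes. Where both arrays of a group were not above background, a fold is a bound: the brighter group's mean over all its arrays against, per array, the higher of the lowest signal above background and the probe's own. Arrays have no read depth, so their number, 2 per group, limits the precision, and p-values measure the spread between these samples.

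The genes named are the markers, the 12 largest rises and falls among called genes with separate arrays (clone and predicted-gene names left out), the 10 smallest interaction p-values and, from each of 42 gene lists, the leading, smallest-p and opposite members. The lists name 703 genes, of which 572 were tested. Members and lists were chosen with earlier results of these data known. Alternatives covered the background correction, normalisation, filter on dim probes, probe per gene, variance prior, a replicate term, the knockout arrays alone and each array left out. Leaving out both CD80low replicate 1 arrays, and a replicate term within each subset, were added after the data were seen. The fit was tested on simulated data.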

Additional observations from a re-analysis of the deposited data

How the results depend on the processing

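The number of genes called in knockout CD80high against knockout CD80low mTECs, 5662 as reported, lay between 5224 and 6304 under the alternatives that kept all arrays or the 4 knockout arrays, and between 4039 and 5853 when 1 array was left out. The number called and at least 2-fold different, 3360 as reported, was 1990 with no background correction and 1998 on log2 of the deposited values. Cyclic loess in place of quantile normalisation made 63.0% of the calls higher in CD80high, against 54.6% as reported. The labels do not say that a replicate number marks a shared animal or day, and same-numbered arrays deviated together with a correlation of 0.103 between the knockout subsets, but of 0.511 between CD80low and 0.469 between CD80high mTECs of the 2 genotypes. With a replicate block 6304 genes were called in the knockout (3385 of them 2-fold) and 6451 in wild type, and the interaction had 0 calls in limma (645 at an unadjusted p under 0.05). With a replicate block within each subset, chosen after seeing the data, the interaction had 1 call (an immunoglobulin kappa segment), with both CD80low replicate 1 arrays left out 3 (that segment, Iglv1 and Tg), and with 1 array left out 0 to 4.

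Of the 194 named genes called, none turned its sign under any alternative run (0 reversed). Under the alternatives that kept all 8 arrays, calls were lost by genes listed in the report as losing the call with 1 knockout array left out. Cd200 (-0.49) and Spib (0.67) also lost it with the mean of all tested probes. Among all 5662 called genes, 0 to 5 changed sign under an alternative. Among the named genes, signs turned in those that were not called. Epcam had -0.0019 with no background correction, -0.0017 with an offset of 50, -0.0093 on the deposited values, -0.18 to 0.18 with 1 knockout array left out and -0.18 without both CD80low replicate 1 arrays. Tgfb1 had 0.081 under cyclic loess and H2-Ab1 0.35 as a mean of probes. Krt15 had 0.16 under cyclic loess and 0.34 with the block within subsets. With knockout CD80low replicate 1 left out at one end and replicate 2 at the other, differences ranged over -0.33 to 0.32 for Krt15, -2.27 to 0.92 for Pip, -5.20 to 2.07 for Scgb2b27, -0.59 to 0.29 for Crp, -0.026 to 0.90 for Foxj1, -0.53 to 4.23 for Mucl2 and -4.47 to 1.94 for Tg, and the value of Hba-a1 without replicate 2 was -1.20. Without both CD80low replicate 1 arrays Pip had 0.94 and Scgb2b27 2.10. With the block within subsets, Col1a1 had -0.14, Crp 0.33, Hba-a1 -1.07 and Tg 0.56. The cause of these shifts was not tested. Medians of the thymic epithelial identity, neuroendocrine, cell cycle, fibroblast and endothelial lists changed sign under at least 1 alternative. Medians of the other lists kept their sign, but the size of some depended on the alternative. They ranged over 1.42 to 2.72 for pancreas and stomach, -1.25 to -0.62 for Notch and -1.22 to -0.61 for tuft cell genes. Others changed less, such as that of collagens and matrix (-1.38 to -1.02).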
